A study of Mus musculus with 9 samples.

Results

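The genes described here encode the enzymes of the tricarboxylic acid (TCA) cycle and the routes by which pyruvate and glutamine carbon enter it. They were chosen as a fixed set of 31 genes, matched by Ensembl ID, of the 48795 gene IDs in the RNA count files. Of these, 13 belong to the cycle, 4 to the pyruvate dehydrogenase complex, 5 to its kinases and phosphatases, 3 to lipoylation, 3 to pyruvate import and carboxylation, and 3 to glutamate and malate metabolism. All 31 passed the low-count filter and were tested. The cells were follicular B cells from spleens of C57BL/6 mice with a floxed Yy1 gene (yy1 f/f), purified on CD23. The product of Yy1 is YY1, a transcription factor with zinc fingers, and both groups carried the floxed alleles. The 3 tatcre RNA libraries came from cells given TAT-CRE, a cell-permeable Cre recombinase, and the 3 mock libraries from cells given a mock treatment. Culture with LPS and IL-4 followed in both, for 72 hours with 10% serum in the text on the series and for 48 hours with 20% serum in the text on the samples. The text on the series describes 3 mice; their ages, and the mouse behind each library, are not given in the sources read. Exposure to the recombinase and loss of Yy1 cannot be told apart in this design.

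The TCA cycle oxidizes acetyl groups in the mitochondrial matrix and passes electrons to the respiratory chain. Pyruvate crosses the inner membrane through the mitochondrial pyruvate carrier and is turned into acetyl-CoA by pyruvate dehydrogenase, a multi-subunit complex that kinases switch off and phosphatases switch on. Glutamine enters as glutamate, which becomes 2-oxoglutarate by dehydrogenation or transamination. Activated B cells draw on both fuels while they grow and divide.

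The libraries held 22729187 to 28230727 gene counts. Yy1 had 2542 to 3018 counts in the mock libraries and 24 to 50 in the tatcre libraries. Mock 3 stood apart from the other libraries on the first principal components and had the fewest genes with a count. Markers of B cells were present in every library, with summed levels of 5211 to 5522 library-scaled counts (CPM) in mock and 4280 to 4360 CPM after TAT-CRE, and 5 of 9 were called lower. Plasma cell markers summed to 961 to 998 CPM in mock and 728 to 800 CPM after TAT-CRE, with 3 of 6 tested called lower. Of all tested genes 16.3% were called lower. The share was 24.2% at a mean log2 CPM of 6 to 8 and 30.2% at 8 and above. Both marker lists are too short to read a share from. T cell, NK cell, neutrophil and erythroid or platelet markers summed to at most 1.56 CPM in any library. Cd14, C1qa, C1qb, S100a8, S100a9, Ly6g, Hbb-bs and Ppbp had no count in any library. Myeloid markers summed to 24.5 to 26.1 CPM in mock and 19.0 to 20.2 CPM after TAT-CRE, nearly all of it Mpeg1, and dendritic cell markers to 120 to 134 and 106 to 113 CPM, mostly Flt3. The part of these shifts in the results below was not tested. In bulk RNA, fewer cells of a type and less RNA per cell cannot be told apart.

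Most transcripts of the cycle and its entry routes were near their mock levels in tatcre cells, and a few were clearly lower. Of the 31 genes 6 were lower (Suclg2, Sucla2, Pdhx, Cs, Pdhb and Dlst), 1 was higher (Glud1) and 24 were not called by edgeR's quasi-likelihood test at a Benjamini-Hochberg adjusted p of at most 0.05. Across all 15546 genes tested, 16.3% were called lower and 10.8% higher. The members' 19.4% lower lies near that background and their 3.23% higher below it, so neither count is by itself a result about this pathway. The median log2 fold change of the members was -0.07, beside 0.02 over all tested genes. With library-size scaling the median of all genes shifted to 0.13 and that of the members to 0.04, so the sign of the members' median depends on scaling. With both scalings it lay below the median of all genes, a difference that was not tested. The balance of calls over all genes moved too: 60.2% were falls with TMM scaling, 48.5% with upper-quartile factors and 42.0% with library size alone. Levels of the 2 groups did not overlap, with tatcre lower, for 8 members and, with tatcre higher, for 4. The background shares for this are 23.3% and 20.6%. The summed level of the 31 genes was 3193, 3372 and 3273 CPM in the mock libraries and 3112, 3022 and 3144 CPM in the tatcre libraries.

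**Figure D1:**
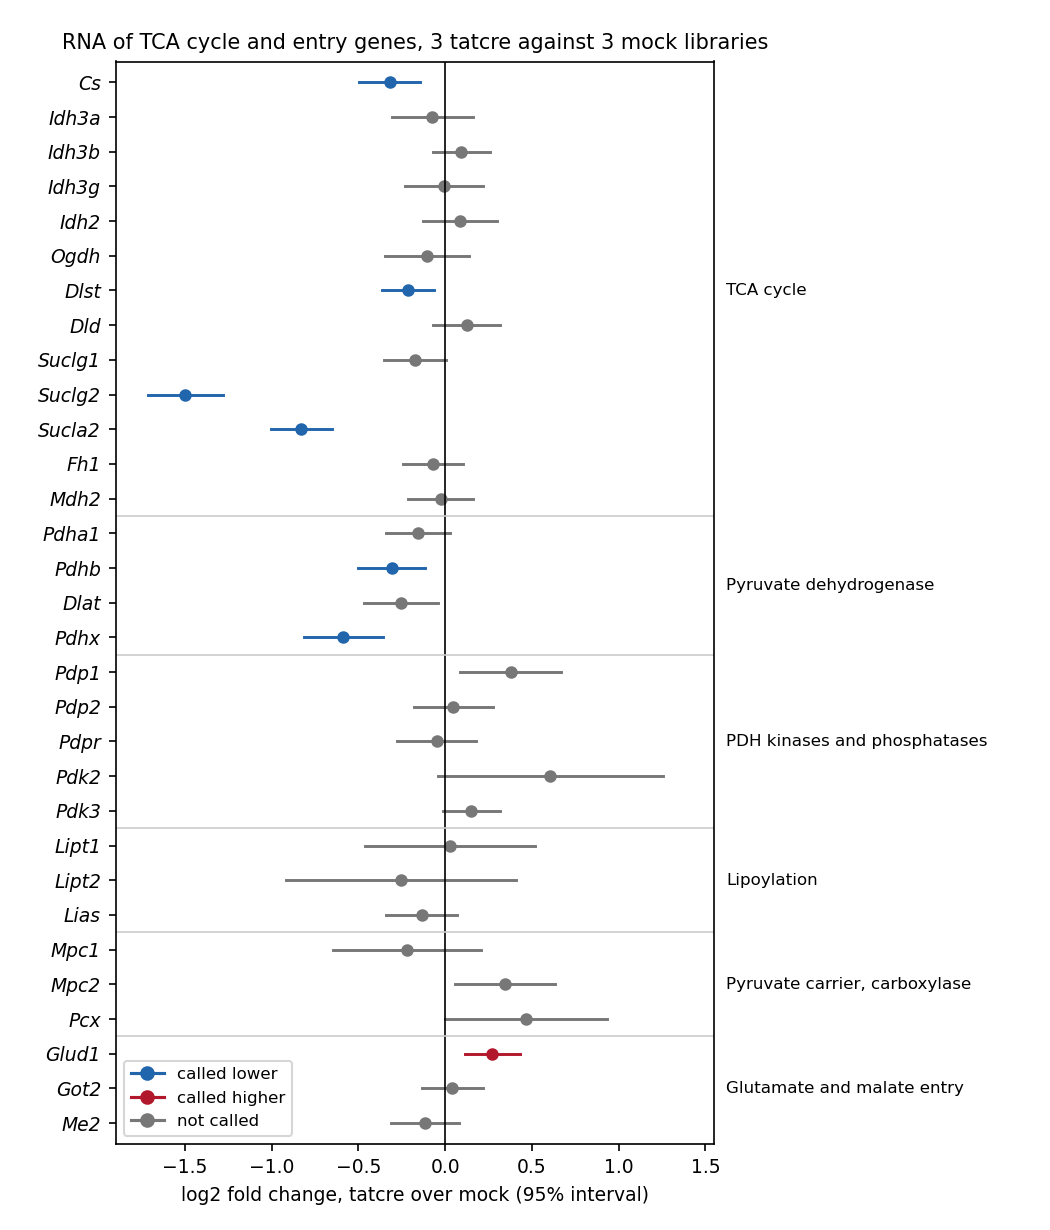
Log2 fold change of tatcre over mock (horizontal axis) with 95% intervals for each of the 31 genes, ordered by step; blue points were called lower, the red point higher and grey points were not called. Most points lie close to 0, and the points for Suclg2 (-1.50) and Sucla2 (-0.83) lie farthest to the left.

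Most members changed by little. For 27 of 31 the log2 fold change lay within 0.5 of 0. The exceptions were Suclg2, Sucla2 and Pdhx, which were called lower, and Pdk2, a low-count gene that was not called. Of the 24 genes not called, 18 had a 95% interval inside a 1.5-fold change in either direction. The intervals of Pdp1, Pdk2, Lipt2, Mpc1, Mpc2 and Pcx reached past that size. Falls were more frequent among well-expressed genes in the whole data set: of 2686 tested genes with a mean log2 CPM of 6 to 8, 24.2% were called lower and 10.9% higher. The corresponding counts for the members at that level were 4 lower and 1 higher of 16.

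Because Yy1 RNA was far lower after TAT-CRE, the promoters of the members were searched for short forms of the YY1 motif. RefSeq windows on GRCm38.p6 (250 bases before and 50 after a start site) were available for 28 members, 38 windows in all. On either strand the letters AANATGG occurred before the start in 2 members, Cs and Idh3g, and ATGGCGG in 2 members, Idh3g and Pdp2. The forms share the letters ATGG, so a single place can match both. Of all 32851 windows, 12.4% held AANATGG and 2.21% held ATGGCGG before the start, against 5.26% of the 38 member windows for each form. With the bases after the start included, the shares of all windows were 16.1% and 4.055%. Those of the member windows were 15.8% and 13.2%, the latter being 5 windows of 4 members. Sucla2 and Ogdh were added for both forms and Idh3b for AANATGG only. Overlapping windows of Ogdh hold the same ATGGCGG site. A difference from all windows was not tested. The stretches below are shown to set the matches of called genes (Cs and Sucla2) beside those of genes that were not called (Idh3g and Pdp2), the latter chosen after the matches were seen. Capitals mark the matches, and each stretch reads along the gene's own strand.
Cs, 100 to 1 bases before the start, chr10:128337627-128337726, plus strand: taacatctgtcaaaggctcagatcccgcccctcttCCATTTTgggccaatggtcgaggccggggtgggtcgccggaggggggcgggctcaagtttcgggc
Sucla2, bases 12 to 41 after the start, chr14:73552797-73552826, plus strand: cggactcagaaATGGCGGcgtCCATGTTct
Idh3g, 150 to 81 bases before the start, chrX:73786978-73787047, minus strand: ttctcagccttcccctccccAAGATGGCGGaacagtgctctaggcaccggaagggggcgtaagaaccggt
Pdp2, 80 to 11 bases before the start, chr8:104591392-104591461, plus strand: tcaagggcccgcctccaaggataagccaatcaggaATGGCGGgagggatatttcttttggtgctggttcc
Neither form was in the window of Suclg2, the member with the largest fall. A match describes letters and does not show binding, and the YY1 peak lists were not set on these genes because their build is not settled. Of motifs of other factors of mitochondrial gene promoters, CCGGAAG (ETS family) stood before the start in 4 of 38 member windows, against 6.91% of all windows. GCGCANG (part of the NRF1 site) stood in 12 of 38, from 10 members, against 13.9%, and AAGGTCA (ERR receptors) in 0 of 38, against 4.08%. Overlapping windows of Ogdh count the same GCGCANG site more than once. For every motif, the set of all windows was not matched to the members in expression or base content. The differences in share therefore cannot be read as a trait of this pathway.

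The largest falls among the 31 genes were in succinyl-CoA ligase, the enzyme that turns succinyl-CoA into succinate and makes a nucleoside triphosphate. Its alpha subunit, from Suclg1, pairs with one of 2 beta subunits, the GTP-forming one from Suclg2 or the ATP-forming one from Sucla2. Suclg2 (ENSMUSG00000061838, chromosome 6, 95473009 to 95718858 in GRCm38) stood at 36.2, 40.5 and 38.1 CPM in the mock libraries and at 13.9, 14.1 and 12.7 CPM in the tatcre libraries. Every tatcre library lay far below every mock library. The fall was 2.82-fold (log2 fold change -1.50, SE 0.10, edgeR adjusted p = 3.9e-06). Sucla2 (ENSMUSG00000022110, chromosome 14, 73552786 to 73596144) had 134, 138 and 134 CPM in mock and 75.1, 82.3 and 71.5 CPM after TAT-CRE. These groups were also well apart, and the fall was 1.78-fold (log2 fold change -0.83, SE 0.08, edgeR adjusted p = 4.6e-05). Suclg1, for the shared alpha subunit, had 80.8, 87.3 and 87.3 CPM in mock and 80.8, 73.1 and 72.9 CPM after TAT-CRE and was not called (log2 fold change -0.17, 95% interval -0.35 to 0.01, edgeR adjusted p = 0.14).

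The subunits of this enzyme thus moved by unequal amounts, which was examined as shares of counts within each library, a measure that library scaling does not touch. Of the counts of both beta subunit genes, Suclg2 took 21.2, 22.7 and 22.1% in the mock libraries and 15.6, 14.6 and 15.1% in the tatcre libraries. The mean share fell by 6.92 percentage points, from 22.0 ± 0.729% to 15.1 ± 0.511% (SD, n = 3 each, exact permutation test, 2-sided, p = 0.1). With 3 libraries against 3 no exact p below 0.1 can be reached, and adjusted over the 8 shares computed here it was 0.114. In the sum of all 3 genes, Suclg1 made up 32.9 ± 0.709% in mock and 45.7 ± 2.31% in tatcre cells (n = 3 each, exact permutation p = 0.1), with no overlap between groups. The Suclg1 share was chosen after the values were seen, and its separation largely restates the called falls of Suclg2 and Sucla2. Counts follow transcript length, so these shares describe the change between groups and not the ratio of molecules.

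**Figure D2:**
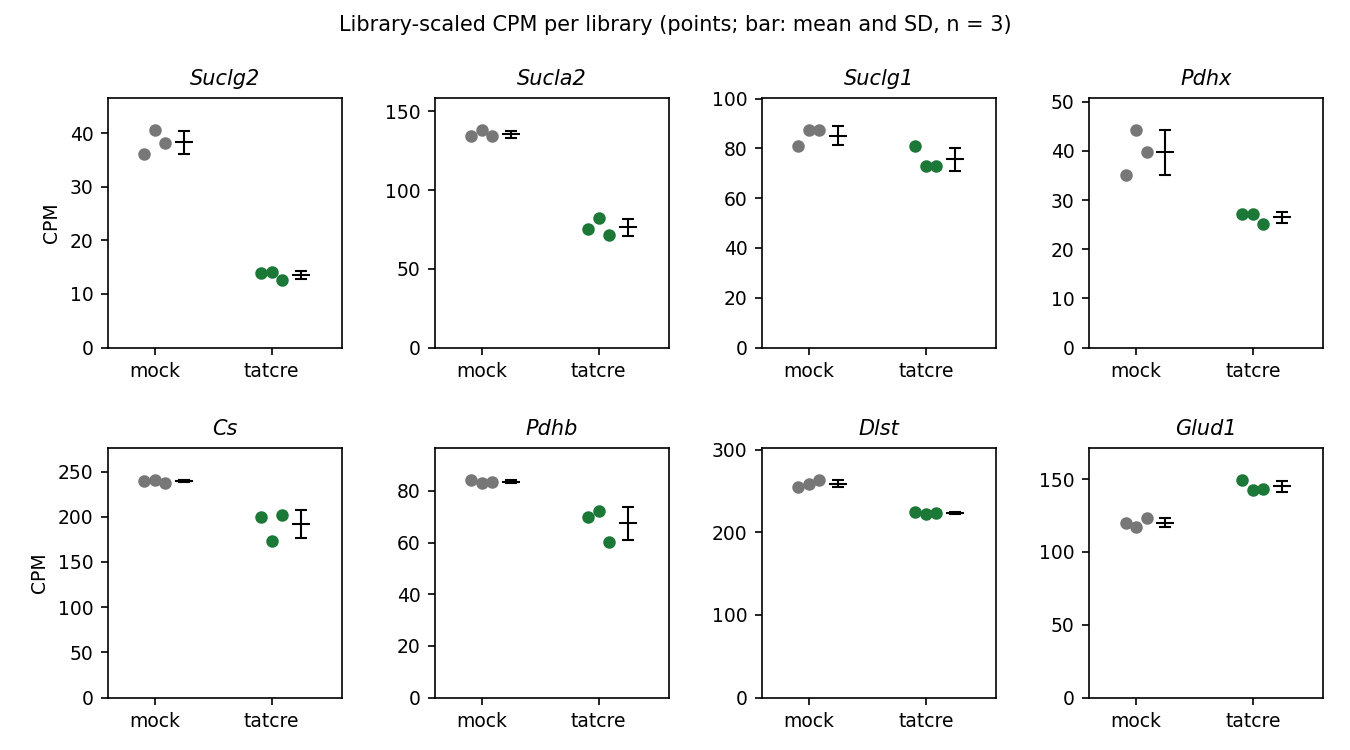
Library-scaled CPM (vertical axes, from 0) of the 7 called genes and of Suclg1 in each of 3 mock (grey) and 3 tatcre (green) libraries, with mean and SD beside the points. The tatcre libraries sit at 12.7 to 14.1 CPM for Suclg2, against 36.2 to 40.5 CPM in mock, while the groups lie close together for Suclg1.

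The other enzymes of the cycle were mostly not called. Citrate synthase, which joins acetyl-CoA to oxaloacetate, was the exception at the entry point: Cs had 240, 241 and 238 CPM in mock and 200, 174 and 202 CPM after TAT-CRE. All tatcre libraries lay below the mock libraries, and the fall was 1.25-fold (log2 fold change -0.32, SE 0.08, edgeR adjusted p = 0.013). It held in each of 12 other fits, with log2 fold changes from -0.37 to -0.22. A near-copy of the gene, Csl, was at 4.31 CPM in mock and 3.44 CPM after TAT-CRE. Reads shared by both could be assigned to either.

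Isocitrate dehydrogenase, which makes 2-oxoglutarate, exists in an NAD-dependent form of the cycle (Idh3a, Idh3b, Idh3g) and an NADP-dependent mitochondrial form (Idh2). None of these 4 genes was called. Idh3a averaged 97.7 ± 12 CPM in mock and 92.7 ± 8.73 CPM after TAT-CRE (log2 fold change -0.07). Idh3b averaged 168 ± 5.76 and 180 ± 7.67 CPM, and Idh3g 244 ± 19.7 and 243 ± 30.8 CPM. For Idh2 the means were 29.9 ± 1.29 and 31.7 ± 2.73 CPM. With library-size scaling Idh3b was called higher (adjusted p = 0.045 by edgeR). Groups overlapped for all 4, and the 95% intervals of their log2 fold changes together spanned -0.31 to 0.30. Idh3b overlaps the gene Nop56, which the counting may split.

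The 2-oxoglutarate dehydrogenase complex converts 2-oxoglutarate to succinyl-CoA. Ogdh, its decarboxylase, had 225, 244 and 202 CPM in mock and 213, 176 and 234 CPM after TAT-CRE, with overlapping groups (edgeR adjusted p = 0.50). Dlst, its lipoyl-bearing core subunit, had 255, 258 and 263 CPM in mock and 224, 222 and 223 CPM after TAT-CRE. These groups did not overlap, and the small fall was called (1.16-fold, log2 fold change -0.21, SE 0.07, edgeR adjusted p = 0.039). That call was lost in 10 of 12 other fits, including the removal of any one library (adjusted p from 0.053 without mock 1 to 0.12 without tatcre 1). Dlst also overlaps the gene Prox2. Dld, the dehydrogenase subunit that this complex shares with pyruvate dehydrogenase, had 321, 339 and 387 CPM in mock and 379, 403 and 358 CPM after TAT-CRE and was not called (log2 fold change 0.12, adjusted p = 0.32 by edgeR).

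In the last steps, fumarase (Fh1) averaged 141 ± 9.40 CPM in mock and 134 ± 1.04 CPM after TAT-CRE, and malate dehydrogenase (Mdh2) 174 ± 11.7 and 171 ± 12.7 CPM. Neither was called, and their 95% intervals on the log2 scale were -0.24 to 0.10 and -0.21 to 0.16. Between the ligase and fumarase stands succinate dehydrogenase, whose subunit genes were not part of the set. Of its 4 genes Sdha, Sdhc and Sdhd fell 1.39-, 1.86- and 1.47-fold (edgeR adjusted p = 0.00069, 0.00025 and 0.0010), while Sdhb was not called at 86.4 and 87.8 CPM. The called falls of the cycle genes examined here were thus in citrate synthase, the 2-oxoglutarate dehydrogenase core, succinyl-CoA ligase and succinate dehydrogenase.

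Pyruvate dehydrogenase was lower in part of its subunits. Pdhx, which tethers the dehydrogenase subunit to the core, had 35.2, 44.2 and 39.8 CPM in mock and 27.1, 27.1 and 25.1 CPM after TAT-CRE. No tatcre library reached the lowest mock library, and the fall was 1.5-fold (log2 fold change -0.59, SE 0.10, edgeR adjusted p = 0.0019). Pdhb, the beta subunit of the decarboxylase, had 84.2, 83.0 and 83.5 CPM in mock and 70.0, 72.2 and 60.2 CPM after TAT-CRE. It fell 1.24-fold (log2 fold change -0.31, SE 0.09, edgeR adjusted p = 0.024). The call of Pdhb was lost in 7 of 12 other fits, among them those without mock 1, mock 2, tatcre 1 or tatcre 3 (adjusted p = 0.056, 0.061, 0.057 and 0.079).

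Dlat, the acetyltransferase core, had 35.6, 37.1 and 41.7 CPM in mock and 30.3, 34.3 and 31.3 CPM after TAT-CRE. The groups did not overlap but the difference was not called (log2 fold change -0.26, adjusted p = 0.074 by edgeR; called without tatcre 2, 0.047). Pdha1, the alpha subunit of the decarboxylase, had 138, 146 and 156 CPM in mock and 125, 142 and 127 CPM after TAT-CRE and was not called (log2 fold change -0.16, adjusted p = 0.19 by edgeR). Pdhx made up 51.0 ± 3.01% of the counts of Pdhx and Dlat in mock and 45.3 ± 1.71% in tatcre cells (SD, n = 3 each, exact permutation p = 0.1). This pair was chosen after the values were seen, with a called gene beside an uncalled partner, so the shift largely restates that choice. The summed level of the 4 genes was 293 to 321 CPM in mock and 244 to 276 CPM in tatcre libraries.

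None of the 5 tested regulators of the complex was called by edgeR or by DESeq2, and 1 of 5 had an unadjusted edgeR p under 0.05. That gene was Pdp1, a phosphatase catalytic subunit that activates the complex, with 6.61, 6.56 and 6.81 CPM in mock and 9.14, 8.85 and 7.98 CPM after TAT-CRE. The groups were apart, the log2 fold change was 0.38 (95% interval 0.09 to 0.67), and the adjusted p was 0.055. RLE, upper-quartile and library-size scaling each made the rise a call (adjusted p = 0.0496, 0.029 and 0.021). The other phosphatase gene, Pdp2, averaged 32.1 ± 3.31 and 33.1 ± 2.48 CPM, and the phosphatase regulatory subunit gene Pdpr 23.6 ± 2.32 and 22.8 ± 0.871 CPM.

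The kinases inactivate the complex by phosphorylating its decarboxylase. Pdk3 had 125, 117 and 115 CPM in mock and 135, 132 and 131 CPM after TAT-CRE, without overlap but not called (log2 fold change 0.15, adjusted p = 0.16 by edgeR; 0.029 and called with library-size scaling). Pdk2 was scarce, at 3.48, 1.89 and 1.87 CPM in mock and 4.43, 3.34 and 3.29 CPM after TAT-CRE. Its log2 fold change of 0.61 (SE 0.29) was not called (edgeR adjusted p = 0.15), and mock 1 overlapped the tatcre libraries. Without mock 1 it was called higher (log2 fold change 0.96, adjusted p = 0.033). Pdk3 took 98.0 ± 0.639% of the counts of Pdk2 and Pdk3 in mock and 97.3 ± 0.416% in tatcre cells (SD, n = 3 each, exact permutation p = 0.3). Of the kinases outside the set, Pdk1 averaged 231 and 208 CPM and was not called (edgeR adjusted p = 0.15), and Pdk4 had at most 0.256 CPM in any library and was not tested.

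Lipoic acid is the cofactor carried by Dlat, Pdhx and Dlst, and it is made and attached by the products of Lipt2, Lias and Lipt1. None of the 3 genes was called by edgeR or DESeq2, and none had an unadjusted edgeR p under 0.05. Lias, the lipoyl synthase, had 32.1, 37.3 and 35.6 CPM in mock and 32.3, 33.1 and 30.2 CPM after TAT-CRE (log2 fold change -0.13, adjusted p = 0.31 by edgeR). Lipt1 averaged 3.61 and 3.68 CPM and Lipt2 2.68 and 2.25 CPM, with wide 95% intervals on the log2 scale (-0.46 to 0.52 and -0.92 to 0.41). Lipt1 overlaps the gene Mitd1. Of 17 tested genes that supply lipoyl synthesis or build iron-sulfur clusters, which Lias needs, 3 were lower (17.6%) and 2 higher (11.8%), near the 16.3% and 10.8% of all tested genes. Nfu1, an iron-sulfur carrier, fell 1.42-fold (47.8 to 33.6 CPM, edgeR adjusted p = 0.0018).

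Of 7 tested genes of other lipoyl-bearing complexes and their regulators 3 were lower and 1 higher, with a median log2 fold change of 0.12. Of all tested genes 16.3% were lower and 10.8% higher, and 7 genes are too few to read a share from. The 3 falls were all in the branched-chain complex. The branched-chain ketoacid dehydrogenase is built like pyruvate dehydrogenase and shares Dld with it. Its core subunit gene Dbt fell 3.30-fold (43.5 ± 9.40 to 13.2 ± 3.83 CPM, edgeR adjusted p = 0.00015), and its decarboxylase genes Bckdha and Bckdhb fell 2.16- and 2.07-fold (edgeR adjusted p = 0.0024 and 0.00062). The 95% intervals of these 3 log2 fold changes were -2.17 to -1.28, -1.56 to -0.66 and -1.39 to -0.71. That of Dlat was -0.47 to -0.04, and that of Pdhx, -0.81 to -0.36, overlapped those of Bckdha and Bckdhb. A difference between the complexes was not tested. Bckdk, the kinase of the branched-chain complex, rose 1.29-fold (58.2 to 75.1 CPM, edgeR adjusted p = 0.020). That call was lost without mock 2, mock 3, tatcre 1 or tatcre 3 (adjusted p = 0.055, 0.078, 0.077 and 0.070). The glycine cleavage genes Gcsh and Amt were not called (log2 fold changes 0.18 and 0.62).

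**Figure D3:**
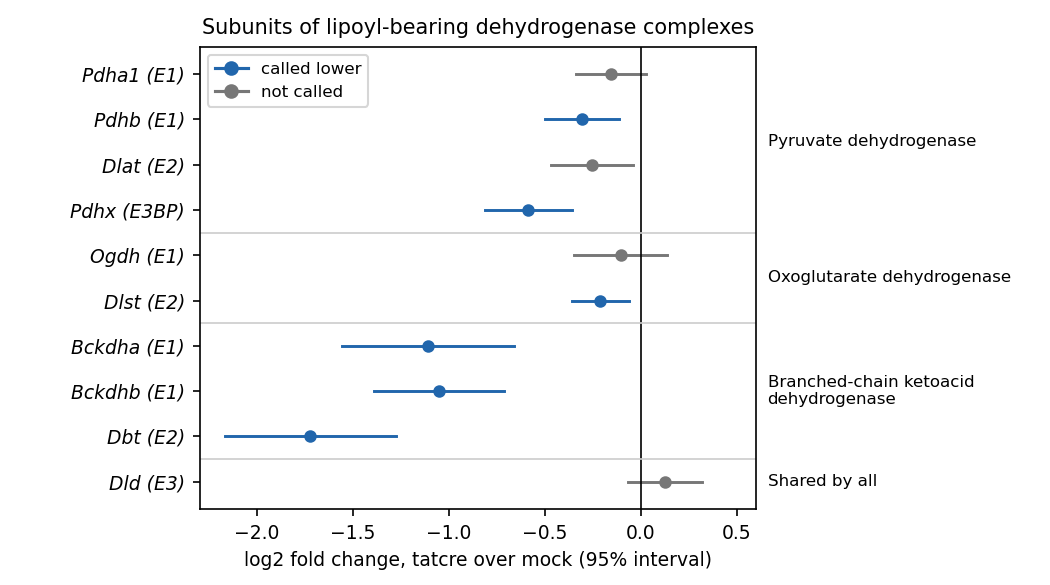
Log2 fold change of tatcre over mock with 95% intervals for subunits of the 3 lipoyl-bearing ketoacid dehydrogenases (E1, decarboxylase; E2, lipoyl-bearing core; E3, dehydrogenase; E3BP, its binding protein). The branched-chain subunits lie between -1.72 and -1.05, the pyruvate and 2-oxoglutarate subunits between -0.59 and -0.11, and the shared Dld at 0.12.

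Pyruvate entry and carboxylation were carried by low-count genes, none of which was called by edgeR or DESeq2. One of the 3 had an unadjusted edgeR p under 0.05. Mpc1 and Mpc2 encode the partner subunits of the mitochondrial pyruvate carrier. Mpc2 had 9.03, 9 and 11.2 CPM in mock and 12.8, 12.7 and 11.5 CPM after TAT-CRE, without overlap (log2 fold change 0.34, 95% interval 0.05 to 0.63, edgeR adjusted p = 0.076). Upper-quartile and library-size scaling made the rise a call (adjusted p = 0.039 and 0.025). Mpc1 had 6.65, 7.19 and 6.09 CPM in mock and 4.80, 4.89 and 7.42 CPM after TAT-CRE, where tatcre 3 exceeded every mock library (log2 fold change -0.22, adjusted p = 0.42 by edgeR). Mpc1 has an annotated pseudogene, Mpc1-ps. Pcx, the carboxylase that makes oxaloacetate from pyruvate, had 3.74, 4.85 and 3.83 CPM in mock and 6.35, 4.26 and 6.58 CPM after TAT-CRE. Tatcre 2 lay within the mock range, and the log2 fold change of 0.47 was not called (edgeR adjusted p = 0.13), though it was without tatcre 2 (0.64, adjusted p = 0.030). On the competing route, Ldha, the lactate dehydrogenase subunit, fell 1.45-fold (917 to 632 CPM, edgeR adjusted p = 0.00051). Ldha has annotated pseudogenes that could share its reads.

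At the glutamate entry 1 member was higher. Glud1, the glutamate dehydrogenase, had 120, 117 and 123 CPM in mock and 149, 143 and 143 CPM after TAT-CRE. All tatcre libraries exceeded all mock libraries, and the rise was 1.21-fold (log2 fold change 0.27, SE 0.07, edgeR adjusted p = 0.017). The call was lost without mock 2 (adjusted p = 0.065), without tatcre 1 (0.11) and in 2 further fits, while the log2 fold change stayed between 0.24 and 0.38.

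Got2, the mitochondrial aspartate aminotransferase, had 168, 187 and 165 CPM in mock and 177, 170 and 188 CPM after TAT-CRE and was not called (log2 fold change 0.04, adjusted p = 0.73 by edgeR). An annotated pseudogene, Got2-ps1, could share its reads. Me2, the mitochondrial malic enzyme that turns malate into pyruvate, had 223, 275 and 245 CPM in mock and 227, 220 and 239 CPM after TAT-CRE and was not called either (log2 fold change -0.12, adjusted p = 0.35 by edgeR). The other malic enzyme genes, Me1 and Me3, had at most 0.328 CPM in any library and were not tested.

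Several matrix enzymes have a cytosolic counterpart that takes part in the exchange of malate, aspartate and citrate across the inner membrane. Of 4 tested genes for cytosolic enzymes 3 were lower: Mdh1 (170 to 135 CPM, edgeR adjusted p = 0.0061), Idh1 (17.6 to 12.9 CPM, edgeR adjusted p = 0.038) and Acly, the citrate lyase (438 to 331 CPM, edgeR adjusted p = 0.0017). The fourth, Aco1, was at 63.9 and 68.4 CPM and was not called (adjusted p = 0.44 by edgeR). Of all tested genes 16.3% were lower and 10.8% higher, and 4 genes are too few to read a share from. Got1, the cytosolic aspartate aminotransferase, fell 1.48-fold (135 to 90.9 CPM, edgeR adjusted p = 0.0011). The call of Idh1 was lost in 7 of 12 other fits. It was lost without mock 1, mock 3, tatcre 1 or tatcre 3 (adjusted p = 0.092, 0.12, 0.069 and 0.11).

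As the mitochondrial partners Mdh2, Idh2 and Got2 were not called, these pairs were compared within each library, a comparison chosen after these values were seen. Got1 took 45.7, 42.4 and 43.3% of the counts of Got1 and Got2 in mock and 34.2, 32.4 and 34.6% in tatcre cells. Mdh1 took 48.6, 47.7 and 51.7% of Mdh1 and Mdh2 in mock and 44.0, 45.9 and 42.5% in tatcre cells. Idh1 took 36.7, 33.9 and 40.2% of Idh1 and Idh2 in mock and 28.8, 33.0 and 25.2% in tatcre cells. In these 3 pairs the cytosolic share was lower in every tatcre library than in any mock library. The pairs were picked for a called cytosolic gene beside an uncalled partner, so this separation largely restates that choice. It does not extend to other pairs. Each of these 3 differences reached p = 0.1, the smallest value the exact 2-sided permutation test allows with n = 3 each (0.114 adjusted over the 8 shares).

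**Figure D4:**
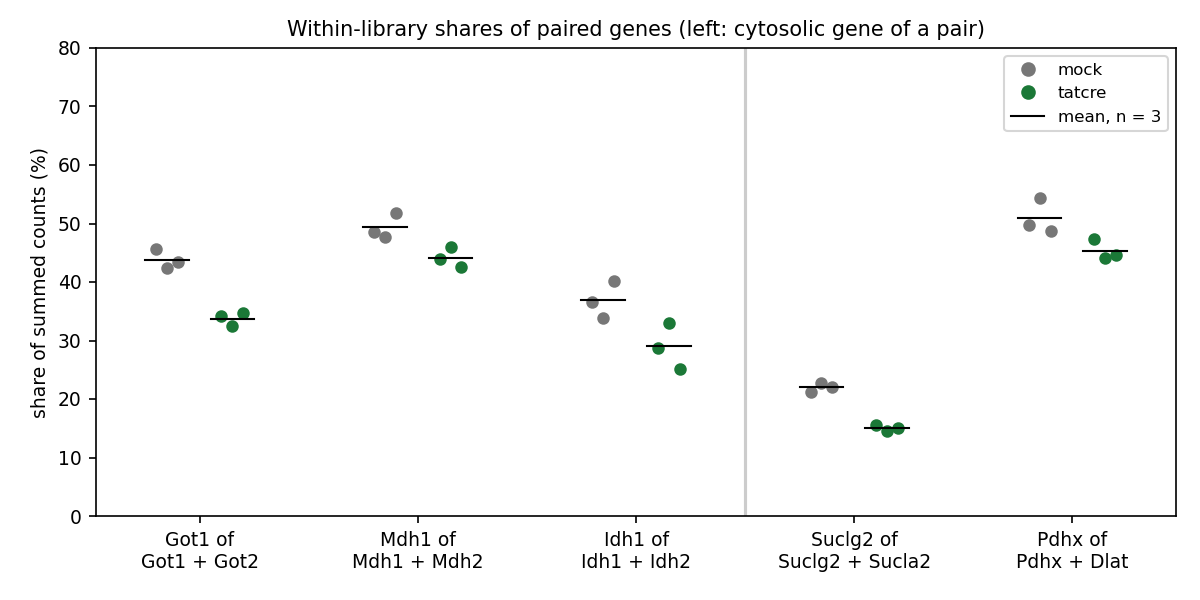
Share of one gene in the summed counts of a pair (vertical axis, percent) in each mock (grey) and tatcre (green) library, with lines at the means of n = 3; pairs left of the divider set a cytosolic gene against its mitochondrial partner. The Got1 share goes from 43.8 to 33.7%, the Mdh1 share from 49.3 to 44.1% and the Idh1 share from 36.9 to 29.0%.

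Carriers that link the matrix to the cytosol were lower in 4 of 9 tested genes and higher in none by edgeR or DESeq2 (1 higher at an unadjusted edgeR p under 0.05), beside 16.3% lower and 10.8% higher of all tested genes. Slc25a1, the citrate carrier, fell 1.69-fold (66.6 ± 0.157 to 39.4 ± 4.17 CPM, edgeR adjusted p = 0.00020). Slc25a13, an aspartate-glutamate carrier, fell 1.5-fold (27.0 to 17.9 CPM, edgeR adjusted p = 0.0015), and Slc25a3, the phosphate carrier, fell 1.42-fold (edgeR adjusted p = 0.00070). At the propionate branch, which feeds the cycle at succinyl-CoA, just before the ligase, 3 of 6 genes were lower and 1 higher, beside the same 16.3% and 10.8% of all tested genes. The carrier list (9 tested) and the propionate list (6 tested) are too short to read a share from. Pccb, a subunit of propionyl-CoA carboxylase, had 57.2, 59.1 and 72.9 CPM in mock and 17.3, 19.9 and 11.1 CPM after TAT-CRE, a 3.92-fold fall (edgeR adjusted p = 3.1e-05). Mmut, the mutase that makes succinyl-CoA, rose 1.58-fold, from 66.1, 63.7 and 70.4 CPM to 105, 115 and 96.1 CPM (edgeR adjusted p = 0.00039).

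Over the 72 related genes listed beside the members, 64 were tested, 22 were lower and 5 higher. That is 34.4% lower and 7.81% higher, against 16.3% and 10.8% of all tested genes, and their median log2 fold change was -0.16. These lists were drawn up with earlier results of these data known, so the counts describe them and support nothing further.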

How the data were processed

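RNA-seq counts of 3 mock and 3 tatcre libraries were analysed. Titles of the samples gave the group and replicate number of each library, and were followed although the sample text lists TAT-CRE for mock cells too. The deposited files hold raw counts per Ensembl gene. The tools named in the submitters' processing notes are HTSeq, MACS2, SAMtools, TopHat2 and Trimmomatic, and the build is mm10. Per the labels' protocols the RNA kit was stranded; whether counting used strand, which annotation it used and how it took multi-mapping reads is not given in the sources read. Overlapping genes touch 13 of the 31 members (for 5 of them a protein-coding gene). Symbols matched 48349 of 48795 IDs, and coordinates are RefSeq's on GRCm38. Lengths of transcripts were not used, so levels, sums and shares across genes do not give ratios of molecules. All 37 genes of the mitochondrial genome are at 0 counts.

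Genes were kept with filterByExpr (minimum count 10, minimum total 15), scaled by TMM and tested with edgeR 4.0.16 in R 4.3.3 (quasi-likelihood, Benjamini-Hochberg over 15546 genes); DESeq2 1.42.0 was an alternative. CPM use TMM-scaled library sizes. Intervals are 95%. A count of 0 allows 3 counts, 0.111 to 0.128 CPM. No library pair agreed within sampling noise (chi-square per degree of freedom at least 8.07). The labels do not tie libraries to mice, so p-values measure the spread between libraries. Shares of counts were compared with an exact permutation test over libraries.

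Members and lists were chosen with earlier results of these data known. Named were every member, related genes called with an absolute log2 fold change of at least 0.5, and a few others, among them Pdk1, Pdk4, the Sdh subunit genes and Yy1. Some genes the rule names, and 1 of the 8 shares, are not reported here. Other related genes, and 6 of the 8 shares, were chosen after their values were seen. Protein sequences were planned but not used here. The peak lists were not used, as their build was not settled here. The processing notes name mm10, while 6, 8 and 14 peaks (mock, tatcre, naive) lie past the last GRCm38 gene of their chromosome. Peaks were not compared with chromosome lengths, so these counts cannot decide the build.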

Additional observations from a re-analysis of the deposited data

How the results depend on the processing

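The falls of Suclg2, Sucla2, Pdhx and Cs were called in each of 12 other fits (other scalings, no filter, DESeq2, a replicate block, each library left out). The number of members called lower was 4 to 6 throughout, and that of related genes 18 to 25. Rises were less settled. Members called higher numbered 2 with RLE factors, 3 with upper-quartile factors, 5 with library size alone, 0 without the low-count filter, and 0 to 2 with a library left out, against 1 as reported. Related genes called higher numbered 3 without the filter and 2 to 3 with a library left out, against 5. Over all genes rises numbered 2614 with library size alone and 998 to 1681 with a library left out (998 without mock 2, 1002 without tatcre 1), against 1679; the cause was not tested. With a library left out, the tatcre minus mock difference was -7.29 to -6.57 points for the Suclg2 share and -1.11 to -0.50 points for the Pdk3 share.

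Deviations of same-numbered libraries had correlations of 0.06, -0.03 and 0.23, and mock 1 correlated best with tatcre 2 (0.25). With 3 libraries per group, these values cannot decide whether libraries were paired by mouse. The main fit used no pairing, and a block on replicate number was an alternative. With the replicate number as a block, 0 members and 2 related genes were called higher and 4 members were called lower. With 3 libraries in each group, pairing cannot change the mean difference in the Suclg2 share, -6.92 points. An exact test that flips the signs of the same-numbered differences gave p = 0.25 for it, the smallest value that test allows. A version of the shares scaled to coding length was not run. Statements on Pdk2, Lipt1, Lipt2, Pcx and Mpc1, all low in counts, are limited by wide intervals; how much of that width is depth was not tested.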
